A study of Mus musculus with 2 samples.

Results

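The mitochondrial ribosome makes the few proteins encoded by mitochondrial DNA, all of them subunits of the respiratory chain and ATP synthase. Its own proteins are encoded in the nucleus, translated in the cytosol and imported. The genes described here encode those proteins and were chosen by name, as every gene that a probe set of the array names alone and whose symbol begins with Mrpl or Mrps and a number. There were 73 such genes among the 17097 named by the array, 46 of the large subunit and 27 of the small subunit. The choice used no measured value.

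Mouse embryonic stem (ES) cells, pluripotent cells kept here without feeders in serum with leukaemia inhibitory factor, were infected with a retrovirus. In one culture it carried a control short-hairpin RNA, in the other a hairpin against the histone variant H2A.B, titled number 1. Both were treated with G418, recorded as 2 to 4 weeks for each. Hairpins were driven by the U6 promoter of a pMSCV-neo vector, and the labels name neither the parent ES line nor whether the cells are a clone. RNA was labelled and hybridised to Affymetrix arrays, with 1 array per group, so no value has a replicate error, no test across samples can be made, and differences describe these 2 arrays. Of the H2A.B genes in RefSeq (H2ab1, H2ab2, H2ab3) the array annotation named none, with 0 probe sets, and the depletion of H2A.B was not checked here.

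ES cell markers were bright on both arrays: all 9 measured passed the intensity filter, a mean log2 intensity of at least 6.73, and their differences, knockdown minus control, ran from -0.09 to 0.33 on the log2 scale, with Pou5f1, the gene of Oct4, at 12.65 and 12.64. Of 9 fibroblast and feeder markers, 5 passed it, and all 5 of those were above 0, up to 0.34 for Vim; over all 9 the summed log2 intensity was 62.1 and 63.2. Of 11 differentiation markers, 9 were below the filter; Pax6 had 9.66 and 8.88 (-0.78), with its other 3 probe sets below the filter and within 0.1 of 0, and Eomes differed by -0.11. The part of any of these markers in the results below was not tested. The deposited table also differs along its rows. Rows 18185 to 33642, called the middle section, hold control values that repeat a value just above them; the rows before and after are called the first and last sections.

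Ribosomal proteins of both subunits fall into those that have a counterpart in bacteria, which mostly bind ribosomal RNA at the functional centres, and those found only in mitochondria, which cover the outside of a ribosome with shortened RNAs. In many of these genes transcription starts from short promoters with sites for ETS-family factors, NRF1 and YY1. The RefSeq table used here (GRCm38.p6) held a promoter, 250 bases before to 50 after the start, for 64 of the 72 measured genes. Letters CCGGAAG, the core of an ETS site, were found on either strand in 22 of those 64 (34.4%), against 22.6% of genes past the intensity filter and 9.93% of all genes with a promoter of that length in RefSeq. Letters AAGATGGC, the core of a YY1 site, were in 12 of 64 (18.8%, against 6.12% and 3.19%), and GCGCATG, which covers one side of the palindromic NRF1 site, in 7 of 64 (10.9%, against 9.03% and 4.41%). At least one of these motifs was in 34 of 64 promoters (53.1%, against 33.6% and 15.9%). The ETS and YY1 letters overlapped in 0 of these promoters. A match of letters is not a bound site, and binding was not measured.

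The 120 bases before the start are printed for 6 genes, from RefSeq in GRCm38.p6, because their differences were among the largest in each direction and their promoters were in the table. Capitals mark matches, the ETS core in Mrpl53 and Mrpl58 (on one strand or the other) and the NRF1 letters in Mrpl17. The stretches are chr17:45686229-45686348 (plus strand) for Mrpl14, chr7:105811088-105811207 (minus strand) for Mrpl17, chr6:83108988-83109107 (plus strand) for Mrpl53, chr11:115403632-115403751 (plus strand) for Mrpl58, chr5:129715377-129715496 (plus strand) for Mrps17 and chr6:92184024-92184143 (minus strand) for Mrps25.
Mrpl14: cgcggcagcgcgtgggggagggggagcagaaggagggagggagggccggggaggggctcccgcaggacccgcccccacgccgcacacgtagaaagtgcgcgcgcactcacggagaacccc
Mrpl17: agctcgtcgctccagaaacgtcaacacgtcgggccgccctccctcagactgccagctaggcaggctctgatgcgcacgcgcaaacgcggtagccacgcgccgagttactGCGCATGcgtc
Mrpl53: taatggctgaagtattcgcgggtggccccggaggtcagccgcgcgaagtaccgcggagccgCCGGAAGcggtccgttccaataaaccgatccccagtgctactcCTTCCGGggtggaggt
Mrpl58: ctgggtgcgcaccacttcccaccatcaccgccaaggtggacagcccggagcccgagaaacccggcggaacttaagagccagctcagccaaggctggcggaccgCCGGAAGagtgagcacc
Mrps17: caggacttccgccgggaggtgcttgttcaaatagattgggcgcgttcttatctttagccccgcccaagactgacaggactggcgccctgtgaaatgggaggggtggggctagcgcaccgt
Mrps25: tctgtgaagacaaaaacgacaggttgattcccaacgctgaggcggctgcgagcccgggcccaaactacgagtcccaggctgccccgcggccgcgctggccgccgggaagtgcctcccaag
None of the 3 motifs lies in the printed windows of Mrpl14, Mrps17 and Mrps25. Mrpl53 and Mrpl58 both hold the ETS core, 2 times in Mrpl53, and differed in opposite directions (-0.27 and 0.26).

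Each gene was given its brightest usable probe set, the one with the highest mean over both arrays. Values are log2 intensities from RMA, a method that combines the probes of a set. Intensities of different probe sets depend on their probes and were not set against each other. A usable value existed for 72 of the 73 genes, and 70 passed the filter at 6.73, which is the median of the genes' mean intensities. Pairs of intensities are given with the control array first and the knockdown array second, and the difference follows in brackets. Mrpl47, of the large subunit, had 4.53 and 4.57, and Mrps6, of the small subunit, had 3.39 and 3.21; both were below the filter. Mrpl18, which encodes a protein of the central protuberance of the large subunit, had only a repeated control value (10.74, beside 10.85) and was left out.

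Mitochondrial ribosomal protein genes differed little between control and knockdown cells, with most of them slightly lower in the knockdown. Of the 70 genes past the filter, 0 differed by 2-fold, where 1.96% of all 8282 genes past the filter did (0.676% higher and 1.28% lower). Among 70 genes a count of 0 is close to that share. Brighter genes reached 2-fold less often. Of the 4141 genes past a filter at the 75th percentile, 3 were 2-fold higher and 17 lower, and 62.6% lay within 0.1 of 0. Below 0 lay 50 of the 70, where 50.6% of all genes past the filter did. The median difference was -0.044, or -3.02% on the linear scale, against -0.0016 over all genes past the filter. In such bulk RNA, fewer cells with a transcript and less of it per cell cannot be told apart. Within 0.1 of 0 lay 48 of the 70, where 58.5% of all genes did. For scale, the differences of probe sets for one gene had a median SD of 0.052 over the 2556 genes with more than 1 past the filter, and 28 of the 70 differences were smaller than that.

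**Figure D1:**
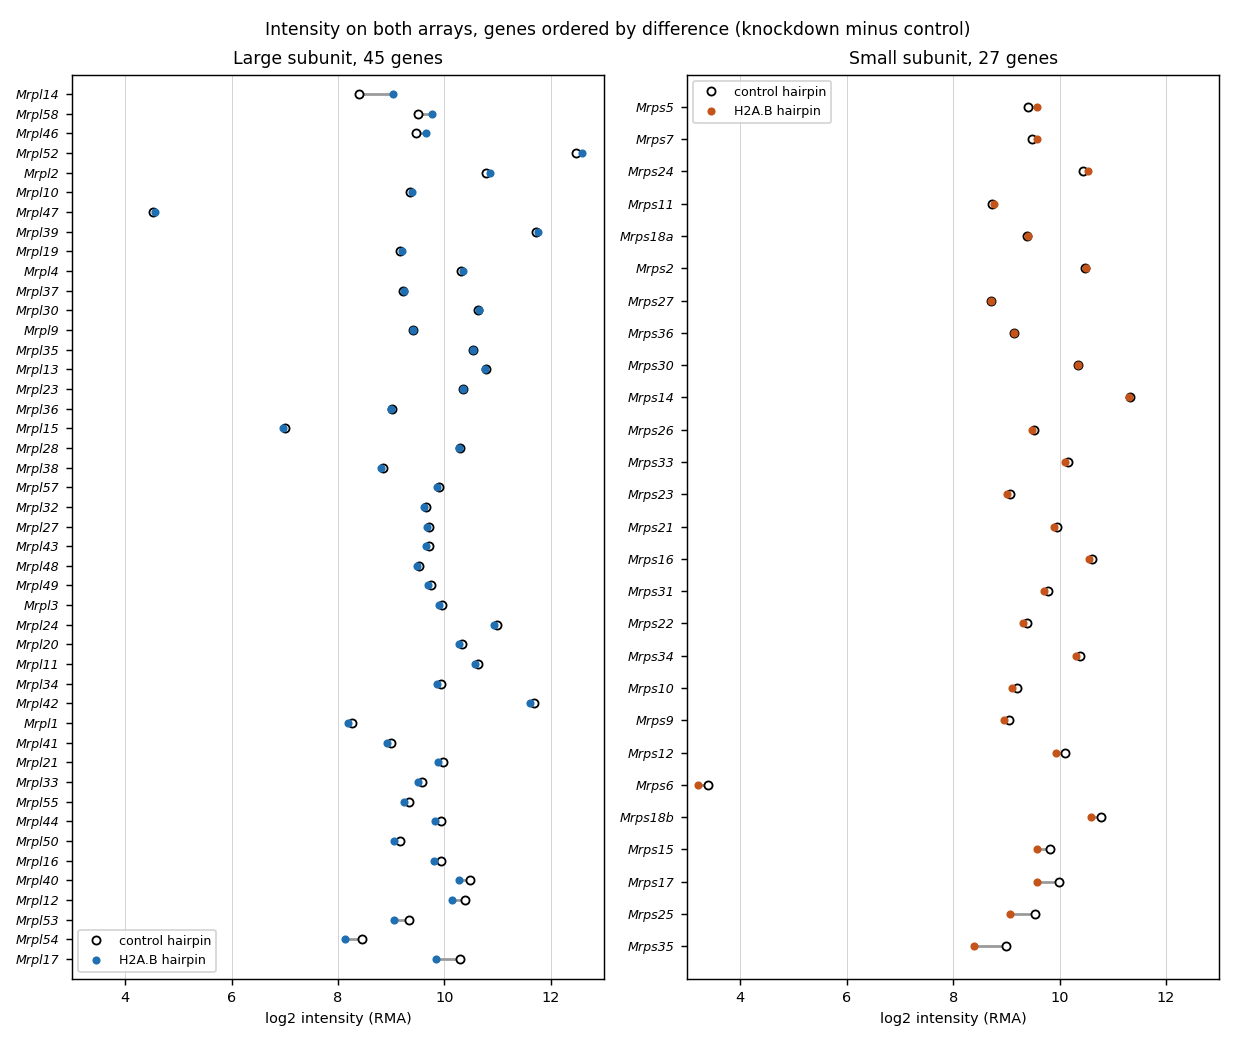
log2 intensity on the control array (open circles) and the knockdown array (filled circles) for the 45 large-subunit genes (left) and the 27 small-subunit genes (right) with a usable value, ordered by the difference. In most rows the circles overlap; Mrpl14 at the top and Mrpl17 at the bottom on the left, and Mrps35 at the bottom on the right, have the widest gaps at each of those ends, and Mrpl47 and Mrps6 lie far to the left.

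In the large subunit 44 genes passed the filter, 32 below 0 and 12 above, with a median of -0.040 (-2.71%) and quartiles of -0.079 and 0.0024. None of them reached 2-fold. At 1.5-fold, which 1.8% of all genes past the filter exceeded upward and 3.84% downward, 1 gene was higher and 0 were lower.

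The gene past 1.5-fold was Mrpl14, whose protein lies at the face where the subunits join and is held by an anti-association factor during assembly. It had 8.40 and 9.04 (0.64, 1.56-fold). Its other probe set, below the filter, went the other way, from 5.01 to 4.71 (-0.30). Mrpl58, a peptidyl-tRNA hydrolase that frees stalled ribosomes and is also built into the subunit, had 9.51 and 9.77 (0.26), with 0.030 on its dimmer probe set. The higher end was completed by 4 genes with smaller differences. Mrpl46, specific to mitochondria, had 9.47 and 9.65 (0.18). Mrpl2, whose bacterial counterpart lies next to the peptidyl transferase centre, had 10.78 and 10.85 (0.067). Mrpl10, the base of the stalk that recruits translation factors, had 9.35 and 9.39 (0.036). The remaining one, Mrpl52, is a case of probe sets that part. Its brightest had 12.47 and 12.58 (0.11), while the other 3 had 10.59 and 10.22 (-0.37), 10.53 and 10.04 (-0.49), and 4.18 and 3.67 (-0.51). The direction of Mrpl52 therefore depends on the probe set read.

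At the lower end stood Mrpl17, whose bacterial counterpart lines the end of the exit tunnel, with 10.29 and 9.84 (-0.45). Its dimmer probe set differed by -0.40, close to the first. Mrpl54, specific to mitochondria, had 8.46 and 8.14 (-0.32) and was likewise low on its dimmer probe set (-0.38). These were the only large-subunit genes more than 0.3 lower on their brightest probe set. Both were also lower on their other probe set, which lay below the filter. All of these probe sets were read from the middle or last section. The next genes had 1 probe set each. Mrpl53, specific to mitochondria, had 9.33 and 9.06 (-0.27). Mrpl12, the flexible part of the stalk, which has also been described as a partner of the mitochondrial RNA polymerase, had 10.39 and 10.14 (-0.25). Mrpl40, a mitochondria-specific protein whose human gene lies in the 22q11 deletion region, had 10.48 and 10.27 (-0.21). Mrpl16, whose counterpart touches the transfer RNA in the A site, had 9.93 and 9.80 (-0.13). A further 2 genes beyond -0.1 were Mrpl50 (9.17 and 9.06, -0.12, and -0.013 on its other probe set past the filter) and Mrpl44, a protein with a ribonuclease III-like fold (9.93 and 9.82, -0.12). For Mrpl44 the other probe set was further down, from 9.41 to 8.94 (-0.47).

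Together with Mrpl2 and Mrpl10, 32 large-subunit genes past the filter lay within 0.1 of 0 on their brightest probe set. Among them were stalk-base gene Mrpl11 (10.63 and 10.57), exit-tunnel genes Mrpl23 (10.36 and 10.34) and Mrpl24 (10.99 and 10.93), and Mrpl3 (9.95 and 9.89) and Mrpl4 (10.32 and 10.34), whose counterparts help to assemble the subunit. Mrpl35 had 10.53 on both arrays. The bright Mrpl42 had 11.68 and 11.60 (-0.073), and Mrpl39, whose other probe set had no usable knockdown value, had 11.72 and 11.75 (0.035). Close to the filter, Mrpl15 had 6.998 and 6.974 (-0.024), with 0.11 on its other probe set, below the filter. Mrpl1 had 8.271 and 8.198 (-0.074), with -0.46 and -0.074 on its other 2, both below the filter. Mrpl33 was at -0.092 on its brightest probe set and at -0.44 on its other, which also passed the filter. Below the filter, other probe sets were at -0.17 and -0.41 for Mrpl38 (-0.032 on its brightest) and at -0.11 for Mrpl57 (-0.032 on its brightest). Large-subunit proteins with a bacterial counterpart (26 genes past the filter, 19 below 0, median -0.032) and those specific to mitochondria (17 genes, 12 below 0, median -0.043) had close medians; Mrpl55 was put in neither class. These classes were drawn up after the values had been seen.

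In the small subunit 26 genes passed the filter, 18 below 0 and 8 above, with a median of -0.064 (-4.35%) and quartiles of -0.0998 and 0.0077. None reached 2-fold, where 1.96% of all genes past the filter did. At least 1.5-fold lower was 1 gene, where 3.84% of all genes past the filter were. Read only from probe sets whose identifier has no s, x or a suffix, the median was -0.021 over 16 genes. The differences ran from -0.60 to 0.18.

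The lowest was Mrps35, a mitochondria-specific protein, with 8.997 and 8.394 (-0.60, 1.52-fold) on its single probe set. Mrps25, also specific to mitochondria, had 9.54 and 9.07 (-0.46). A dim Mrps25 probe set differed by 0.14, another had no usable knockdown value, and 3 that the annotation gives to both Mrps25 and Nr2c2 differed by -0.030, 0.11 and -0.14. Mrps17, whose counterpart is an early RNA binder of the small subunit, had 9.99 and 9.57 (-0.42). These were the only 3 small-subunit genes more than 0.3 lower, and none had a second usable probe set past the filter. Mrps15, another RNA binder, had 9.81 and 9.58 (-0.23) and was lower on its other 2 probe sets too (-0.11 and -0.57).

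Mrps18b, one of the paralogues of bacterial S18, had 10.78 and 10.59 (-0.18). Mrps12, whose counterpart forms part of the decoding centre and is the site of streptomycin resistance in bacteria, had 10.10 and 9.93 (-0.17). Its neighbour Sars2, the gene of the mitochondrial seryl-tRNA synthetase, with 0 annotated genes between them, had 8.22 and 7.89 (-0.33). Both were read from the middle section. Mrps9 had 9.05 and 8.95 (-0.10), 0.19 on a dim probe set and no usable knockdown value on the other.

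The higher end was narrow. Mrps5, whose counterpart guards decoding accuracy, had 9.40 and 9.58 (0.18). Its other 3 probe sets were at 0.20, 0.18 and -0.16, so 3 of the 4 were above 0. Mrps7, of the head of the subunit, had 9.47 and 9.58 (0.11). Mrps11 had 8.73 and 8.77 (0.044), Mrps18a, another S18 paralogue, 9.38 and 9.41 (0.028), and Mrps2 had 10.48 and 10.50 (0.016). These last 3 hardly differed between the arrays.

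Mrps24, the counterpart of bacterial S3, showed the widest split of the family. Its brightest probe set had 10.43 and 10.53 (0.10). The other, with a mean below the filter, had 7.15 and 4.89 (-2.26), which is 4.78-fold lower. Both carry an s suffix, which marks probes shared by several transcripts, and the dimmer lies in the middle section. Mrps6 had a similar neighbour: its own probe set was dim, but among 3 probe sets annotated to both Mrps6 and Slc5a3, one had 8.68 and 6.45 (-2.23) and another 6.83 and 6.72 (-0.11), and the last, whose control value is a repeat, had 8.95 and 9.07 (0.12). Which gene of the pair such a probe set reads was not tested.

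The other small-subunit genes lay within 0.1 of 0. Mrps14 had 11.31 and 11.30, with all 3 of its probe sets between -0.036 and -0.018. Mrps16 and Mrps22, whose human counterparts are mutated in combined respiratory chain deficiency, had 10.61 and 10.55 (-0.065) and 9.39 and 9.31 (-0.081). Mrps27, a pentatricopeptide repeat protein, had 8.71 and 8.72 (0.010). Mrps30 (10.35 and 10.34) and Mrps18a have a small-subunit name but are part of the large subunit in mammalian structures, and Mrps36 (9.13 and 9.14) has been reassigned to the 2-oxoglutarate dehydrogenase complex. With these moved or removed the small-subunit median was -0.065 over 23 genes and that of the large subunit -0.038 over 46. With all genes kept by symbol, mitochondria-specific small-subunit genes, Mrps30 among them, had 9 of 10 below 0 (median -0.070). Those with a bacterial counterpart, Mrps18a among them, had 9 of 15 (median -0.064). Of all genes past the filter, 50.6% were below 0. These classes too were drawn up after the values had been seen.

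**Figure D2:**
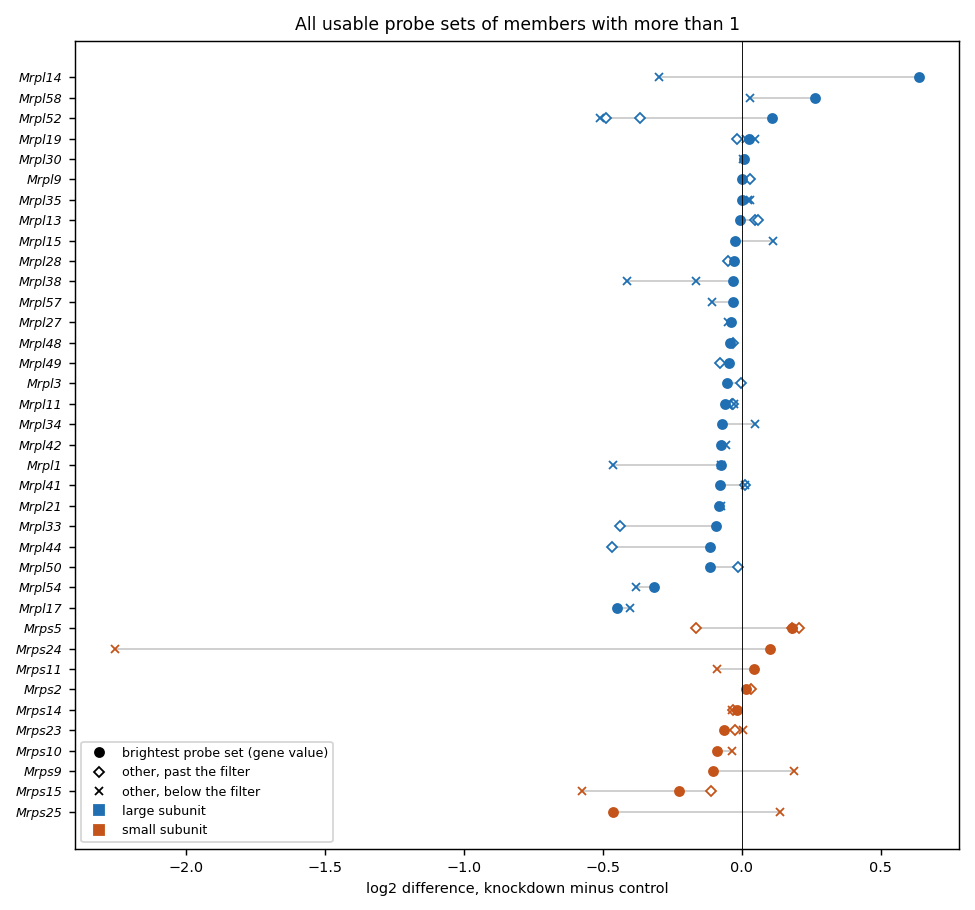
log2 difference, knockdown minus control, of every usable probe set for the 37 genes with more than 1 (blue large subunit, orange small subunit; filled circles the brightest probe set, diamonds others past the filter, crosses others below it). Most points of a gene lie together near 0, while Mrps24 stretches to -2.26 and Mrpl52 and Mrpl14 lie on both sides of 0.

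More than 1 usable probe set existed for 37 genes. Their differences lay within 0.1 of each other in 21 of the 37 and 0.5 or more apart in 4, which were Mrps24, Mrpl14, Mrpl52 and Mrps25. All probe sets were below 0 in 19 genes, all above 0 in 4, and on both sides in the other 14. Over the 18 genes with more than 1 probe set past the filter the SD between them had a median of 0.033. Among the closest were Mrpl21 (-0.082 and -0.074), Mrpl27 (-0.039 and -0.049) and all 4 of Mrpl11 (-0.060 to -0.027), each of them lower on every probe set by a few percent. The closest of all, Mrpl30 (0.0086 and 0.0025), was above 0 on both, as were Mrps2 (0.016 and 0.033) and Mrpl9 (0.00041 and 0.029). Of these genes, Mrpl21, Mrpl27, Mrpl11 and Mrpl30 each had 1 probe set below the filter.

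The size of a difference went with where in the deposited table the gene was read. Of the 22 genes at least 0.1 from 0, 2 were among the 41 read from the first section, 8 among the 13 from the middle and 12 among the 16 from the last. Over all genes past the filter, 81.2% of the first section lay within 0.1, against 26.1% of the middle and 24.5% of the last, so the members followed the table as a whole. Every mitochondrial ribosomal protein gene with a difference beyond 0.15 on its brightest probe set came from the middle or last section, except Mrps6, which is below the filter. This does not hold for the other probe sets. Those of Mrpl44 (-0.47), Mrpl33 (-0.44) and Mrpl52 (-0.37) in the first section were past the filter. Below the filter, first-section probe sets of Mrps15 (-0.57), Mrpl1 (-0.46) and Mrpl38 (-0.41) also differed by more. Within the first section, members were at a median of -0.036 with 30 of 41 below 0, where 47.7% of all genes past the filter there were below 0 and their median was 0.0030. In the middle section the members' median was -0.092 with 9 of 13 below 0 (55.1% of all genes, median -0.035), and in the last it was -0.099 with 11 of 16 below 0 (54.5%, median -0.034). With both subunits pooled, the members' median lay below that of all genes in each section. By subunit, the first section gave -0.036 for 27 large and -0.040 for 14 small genes. In the middle section, the large subunit's median was -0.032 (4 of 7 below 0), not below the -0.035 of all genes. That of the small subunit was -0.13 (5 of 6 below 0). In the last section, medians were -0.099 for the large subunit (8 of 10 below 0) and -0.070 for the small (3 of 6). Why the sections differ was not tested.

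**Figure D3:**
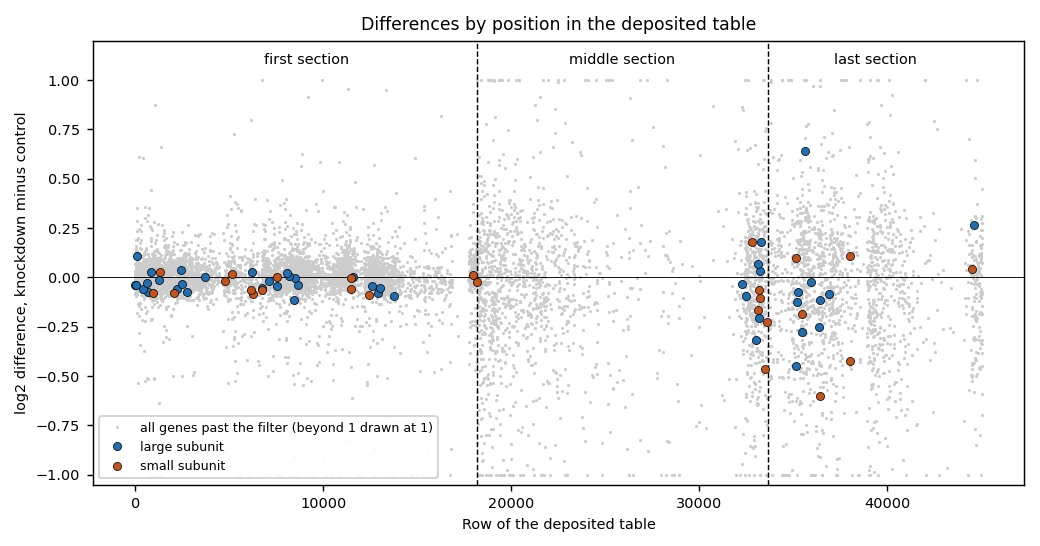
log2 difference, knockdown minus control, against the row of the deposited table for genes past the filter (grey; values beyond 1 drawn at 1), with large-subunit (blue) and small-subunit (orange) genes on top and dashed lines at the limits of the middle section. Up to the first line the members, each read from its brightest probe set, lie in a band between -0.12 and 0.11. After it they spread from -0.60 to 0.64, as the grey points do.

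In other lists of mitochondrial gene expression, medians lay between -0.052 and 0.021. Of 4 other proteins of the mitochondrial ribosome that have no Mrp symbol, the GTP-binding Dap3 had 10.78 and 10.75, Ptcd3 10.86 and 10.90, Chchd1 10.79 and 10.78, and Gadd45gip1 9.22 and 9.23 (median -0.0033). None of the genes past the filter in the lists of mitochondrial translation, transcription and their regulators differed by 2-fold. Mitochondrial tRNA synthetases, which charge the mitochondrial tRNAs, had 9 of 10 genes below 0 (median -0.036), with Sars2 at -0.33 and Wars2 at -0.22. Below the filter, Mars2 was at -0.15, and Ears2, for glutamate, had 5.63 and 4.82 (-0.81), with -1.85, -1.80 and 0.028 on its other probe sets. Translation factors had 3 of 7 below 0 (median 0.021). In the middle section, the elongation factor gene Tufm had 8.89 and 9.31 (0.43) on its only usable probe set, which carries an x suffix. Its exchange factor gene Tsfm was at 0.14, and Guf1, below the filter, at -0.54. Assembly factors had 8 of 16 below 0 (median -0.0026), and the largest differences were those of the RNA helicase gene Dhx30 at 0.12, Noa1 at 0.11, the rRNA methyltransferase gene Tfb1m at 0.11 and the GTPase gene Mtg2 at 0.095. Other probe sets of the last 2 went the other way, at -0.19 for Tfb1m and at -1.78, -0.044 and -0.053 for Mtg2.

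Genes that copy and transcribe mitochondrial DNA had 4 of 8 below 0 (median 0.019). The RNA polymerase gene Polrmt had 9.13 and 8.59 (-0.54) on its single probe set and Tfam, which packs and activates the genome, had 10.07 and 9.82 (-0.25), with -0.18 on its other. The helicase gene Twnk was at 0.28. All 3 were read from the middle section. Polg2, below the filter, was at -0.97. Nuclear regulators of mitochondrial biogenesis had 4 of 7 below 0 (median -0.052). Genes of the factors whose motifs were searched are given here whatever their difference. Nrf1 had 9.13 and 8.94 (-0.19), with -0.11 and 0.036 on its other probe sets past the filter. Gabpa, an ETS-family factor, had 10.46 and 10.41 (-0.053), and its other probe set, also past the filter, went the other way (0.036). Yy1 had 10.95 and 11.02 (0.072), with 0.12 and 0.028 on other probe sets past the filter and -0.029 on a dimmer one. The coactivator genes Pprc1 and Ppargc1b were at 0.19 and 0.14, and the nuclear receptor gene Esrra, below the filter, at -0.52.

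Among functionally related sets, genes of oxidative phosphorylation, whose mitochondrially encoded partners the ribosome makes, had 48 of 74 below 0 and a median of -0.028, with 1 gene 2-fold lower. Cytosolic ribosomal protein genes had 33 of 66 below 0 and a median of 0.0001. Read from the first section alone, 39 of 50 oxidative phosphorylation genes (median -0.034) and 26 of 40 cytosolic ribosomal genes (median -0.0089) lay below 0, beside 30 of 41 mitochondrial ribosomal genes (median -0.036). In the middle section the counts were 5 of 17 (median 0.034), 3 of 14 (median 0.108) and 9 of 13 (median -0.092) in the same order, and in the last 4 of 7 (median -0.043), 4 of 12 (median 0.010) and 11 of 16 (median -0.099). Whether these sets differ could not be tested with 1 array per group.

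**Figure D4:**
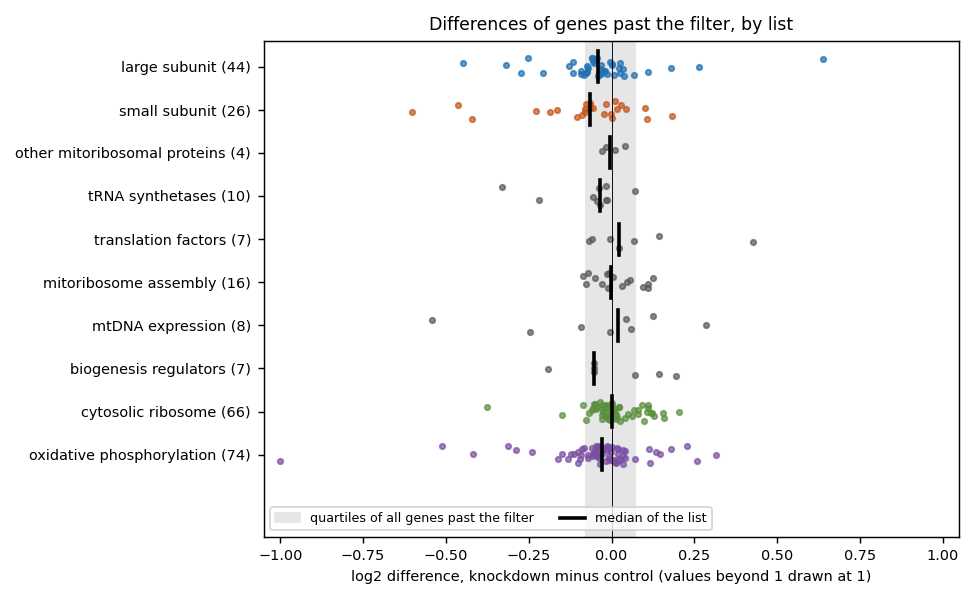
log2 difference, knockdown minus control, of genes past the filter in each list (number in brackets; 1 point a gene, black line the median; values beyond 1 drawn at 1), with the quartiles of all genes past the filter in grey. All medians lie inside the grey band, with those of the large (-0.040) and small (-0.064) subunits to the left of 0.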

How the data were processed

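RMA is the tool that the submitters' processing notes name for both arrays, without its version; the deposited values are on the log2 scale in the control column, judging by their range, and no other step is recorded. In the knockdown column, 616 deposited values form a series rising in steps of 1 (rows 2054 to 4710) and 2 others lie above 20; these 618 were left out. So were 1455 control values identical to a value up to 20 rows above. Probe sets naming 1 gene (28898 of 45118) were used, by the platform annotation; 28689 of them matched RefSeq by gene identifier. The brightest usable probe set gave each of 16563 genes its value, and the 8282 at or above the median mean passed the filter. Nothing was centred. A single array per group allows no test: counts, medians and differences are given. The number of arrays limits their precision, as do probe sets of one gene that disagree and the wider differences of the middle and last sections. Genes named singly were the 6 at each end and the 3 brightest and 3 dimmest per subunit. Also named were those whose probe sets differed by 0.5 or more, those with an unusable probe set, and up to 4 per other list. Further members were named after their values were seen, for their roles, their place beyond 0.1, a difference near 0 or their other probe sets. Gabpa and Yy1 were likewise named after values were seen. Members and lists were chosen with earlier results of these data known. Of 78 RefSeq genes of the family, 73 were named by a probe set; Mrpl22, Mrpl45, Mrpl51, Mrps18c and Mrps28 were not analysed here. Python 3.11.15, pandas 2.3.3 and statsmodels 0.14.6 were used, and the steps were tested on simulated data.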

Additional observations from a re-analysis of the deposited data

How the results depend on the processing

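The medians of both subunits stayed below 0 under all 12 alternatives, between -0.074 and -0.037 for the large subunit and between -0.071 and -0.021 for the small one. Not all of these bear on the medians. The 1.5-fold rule changes only counts, and leaving out both members of repeated pairs left the medians unchanged at -0.040 and -0.064. The small-subunit median was -0.021 (10 of 16 genes below 0) without probe sets that carry an s, x or a suffix, against -0.064 with them, and it was -0.040 in the first section alone and -0.033 in the last alone, where the large-subunit median was -0.074. For each section alone, a gene took its brightest probe set within that section. Genes and probe sets can therefore differ from those behind the section medians given above. Counts past the size rule changed in 3 places. With the 1.5-fold rule 1 large-subunit gene was higher (Mrpl14) and 1 small-subunit gene lower (Mrps35). When the probe sets of a gene were summarised by their median, 1 small-subunit gene was 2-fold lower, Mrps24 at -1.08, because that median averages its brightest probe set with the dim one. That setting moved 13 of the 72 genes by more than the median SD between probe sets of one gene, among them Mrpl52 to -0.43 and Mrpl14 to 0.17. Median and lowess centring took off -0.0016 and a median of 0.0061 and moved 0 members beyond that SD. The last section alone was added after the data had been seen; all other alternatives were listed earlier, with results of these data known. No paired analysis was possible because each group has 1 array, and for the same reason no replicate could be left out. No measure of background came with the values, and differences of dim probe sets have uncertain sizes.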
